A study of Mus musculus with 11 samples.

Results

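The young neuron marker genes described here are Dcx, Tubb3, Elavl2, Elavl3, Elavl4, Stmn2, Stmn3, Gap43 and Mtap2, 9 of the 37991 genes in the deposited expression table, each found there by its symbol (Mtap2 is the table's name for Map2). They were measured by RNA sequencing in 11 libraries of cultured C57BL/6J mouse neural stem cells that had been taken from the frontal cortex of E14.5 embryos (E, embryonic day). The NSC group (3 libraries) was sampled at day 0 in proliferation medium. The other groups were sampled at day 4: Astrocyte (3 libraries) in DMEM that held N-2 supplement and fetal bovine serum, 1% of each, Neuron (3 libraries) in Neurobasal with 2% B-27 supplement, and Oligodendrocyte (2 libraries) in the Neuron medium plus the thyroid hormone T3 at 30 ng/mL. No genetic change was labelled in any group. Each group name stands for a medium and not for the cells a culture held, and no day 4 culture kept in proliferation medium was analysed here, so time in culture and medium cannot be told apart in a comparison with NSC.

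When a progenitor of the embryonic brain leaves the cell cycle and becomes a neuron, it migrates, extends an axon and rebuilds its cytoskeleton. Dcx (doublecortin) stabilises microtubules in migrating neurons, Tubb3 is the beta tubulin used as a marker of neurons, and Mtap2 binds microtubules in dendrites. Elavl2, Elavl3 and Elavl4 are the neuronal Hu proteins, which bind AU-rich RNA and set its stability and splicing. Stmn2 and Stmn3 are neuronal stathmins, which bind tubulin dimers and favour microtubule turnover, and Gap43 is a membrane protein of growth cones. Several of these genes are also transcribed in progenitors or glia, so each was followed on its own.

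Values are CPM, reads scaled to a common library total, and a difference is a log2 fold change on the log2(CPM + 1) scale from limma, where a gene was called at a Benjamini-Hochberg adjusted p under 0.05 over 13342 tested genes. The estimated depth was 49.28 to 66.16 M (mega) reads per library, so that 1 read was worth 0.0151 to 0.0203 CPM. Mitochondrial genes took 4.54% to 8.91% of the reads, the highest share being in Neuron replicate 2. Of the marker lists of other cells, all 10 mature oligodendrocyte genes were called higher than in NSC in every day 4 group, as were 8 to 10 of 10 astrocyte genes. In Oligodendrocyte 1 astrocyte gene was called lower. Of all tested genes 48.0%, 43.5% and 48.1% were called higher than in NSC in Astrocyte, Neuron and Oligodendrocyte, and 35.6%, 39.6% and 32.2% lower. Summed CPM of the astrocyte list ran from 1881 to 1973 in NSC and from 11840 to 12956 in the Neuron group. The summed mature oligodendrocyte list ran from 76.9 to 85.6 CPM in NSC and from 2793 to 3014 CPM in Neuron, and the part of glial cells in the values below was not tested. The 6 microglial genes summed to at most 1.32 CPM in any library. The libraries are labelled as biological replicates, and nothing says that each came from a separate culture, so the p-values measure the spread between these libraries.

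The promoters of Dcx, Tubb3 and Elavl3 are shown because these are the 3 members that were called higher than in NSC in every day 4 medium. Each line gives the 250 bases before the start of transcription in RefSeq's table for build GRCm38.p6, read 5′ to 3′ on the strand of the gene: chrX:143933220-143933469 on the minus strand for Dcx, the outermost of its 2 listed starts, chr8:123411303-123411552 on the plus strand for Tubb3, and chr9:22052024-22052273 on the minus strand for Elavl3. Capitals mark E-boxes (CANNTG, the letters that basic helix-loop-helix proneural factors bind), GC boxes (GGGCGG) and TATAAA, each searched on both strands.
Dcx: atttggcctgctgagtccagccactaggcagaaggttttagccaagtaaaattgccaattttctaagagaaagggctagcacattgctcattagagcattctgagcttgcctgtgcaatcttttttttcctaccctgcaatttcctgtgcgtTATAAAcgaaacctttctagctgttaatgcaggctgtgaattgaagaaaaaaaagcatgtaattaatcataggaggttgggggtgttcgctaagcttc
Tubb3: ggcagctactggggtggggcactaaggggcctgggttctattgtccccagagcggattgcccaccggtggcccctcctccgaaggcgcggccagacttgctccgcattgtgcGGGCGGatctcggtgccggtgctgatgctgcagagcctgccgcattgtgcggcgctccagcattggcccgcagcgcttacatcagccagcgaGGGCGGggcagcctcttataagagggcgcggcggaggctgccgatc
Elavl3: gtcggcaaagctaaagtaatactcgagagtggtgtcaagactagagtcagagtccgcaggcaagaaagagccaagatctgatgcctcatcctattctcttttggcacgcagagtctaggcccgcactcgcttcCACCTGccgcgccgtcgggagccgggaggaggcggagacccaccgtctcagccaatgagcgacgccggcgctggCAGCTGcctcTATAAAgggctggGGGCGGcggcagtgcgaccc
The windows shared few of these letters. Dcx had 1 TATAAA, no E-box and no GC box, and 41.6% G or C, whereas Tubb3 had 2 GC boxes, no E-box and 68.0% G or C. Elavl3 had 2 E-boxes, 1 of them of the form CAGCTG, with 1 GC box and 1 TATAAA. Among all 32851 promoters of the table, 66.2% held an E-box, 13.00% CAGCTG, 32.7% a GC box and 12.4% TATAAA, and the median was 52.4% G or C. The table matched 7 of the 9 members with 16 starts. Stmn2 and Gap43 had no entry. Mtap2, which was not raised in any medium, had 5 GC boxes and 81.2% G or C. The outermost starts of Elavl2, Elavl4 and Stmn3 had no GC box and 55.6%, 53.6% and 48.8% G or C. Any link between these letters and the changes was not tested.

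Dcx was nearly silent in the stem cells and abundant in every day 4 culture. Dcx (ENSMUSG00000031285; mm9 chromosome X, 140290385 to 140367854, minus strand) was at 1.45, 2.02 and 1.33 CPM in the NSC libraries, 113.38, 119.68 and 141.25 CPM in Astrocyte, 177.06, 105.84 and 160.23 CPM in Neuron, and 85.17 and 88.06 CPM in Oligodendrocyte. Every day 4 library lay above every NSC library, and Oligodendrocyte was the lowest of the day 4 groups. Against NSC, Dcx rose by a log2 fold change of 5.60 in Astrocyte (SE 0.158, limma adjusted p 8.01e-13), 5.81 in Neuron (SE 0.158, limma adjusted p 6.21e-13) and 5.08 in Oligodendrocyte (SE 0.177, limma adjusted p 9.67e-12). These rises ranked 23, 16 and 45 among the 13342 tested genes. In bulk RNA, more cells with Dcx and more Dcx RNA per cell cannot be told apart, and the same holds for each gene below.

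The Dcx level did not separate the Neuron medium from the Astrocyte medium. Their libraries overlapped, and the log2 fold change of Astrocyte against Neuron was -0.21 (95% interval -0.56 to 0.13, limma adjusted p 0.256). The value rested on Neuron replicate 2: without it, Dcx was lower in Astrocyte by a log2 fold change of -0.44 (limma adjusted p 0.00141). Dcx was lower in Oligodendrocyte than in Neuron (-0.73, limma adjusted p 0.00255) and than in Astrocyte (-0.52, limma adjusted p 0.0262). The last call was lost without Astrocyte replicate 3 (adjusted p 0.0870) or without either Oligodendrocyte library (adjusted p 0.118 without replicate 1 and 0.0954 without replicate 2), and with no filter on low values (0.0768).

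Tubb3 also rose in every medium, by a smaller fold than Dcx. Tubb3 (ENSMUSG00000062380; mm9 chromosome 8, 125935324 to 125945915, plus strand) was at 3.51, 3.7 and 4.48 CPM in NSC, 30.15, 36.93 and 56.41 CPM in Astrocyte, 30.5, 24.88 and 29.96 CPM in Neuron, and 41.87 and 47.71 CPM in Oligodendrocyte. The Neuron medium gave the lowest mean of the 3 day 4 groups, and Astrocyte replicate 3 gave the highest single value. The log2 fold change against NSC was 3.06 in Astrocyte (SE 0.172, limma adjusted p 9.90e-10), 2.59 in Neuron (limma adjusted p 6.51e-09) and 3.23 in Oligodendrocyte (SE 0.193, limma adjusted p 2.44e-09).

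Between day 4 groups, Tubb3 was higher in Oligodendrocyte than in Neuron (0.64, limma adjusted p 0.00996), with no overlap of libraries, though the call was lost without Oligodendrocyte replicate 2 (adjusted p 0.0857) and under quantile normalization (0.0742). Astrocyte exceeded Neuron by 0.48 (limma adjusted p 0.0284) while their libraries overlapped, and this call was lost without Astrocyte replicate 3 (0.23, adjusted p 0.129), without Neuron replicate 2 (0.39, adjusted p 0.0544), with no filter on low values (adjusted p 0.0821), with only these 2 groups in the fit (adjusted p 0.0620) and under each of the 3 other scalings tried. Astrocyte and Oligodendrocyte were not distinguished (0.16, 95% interval -0.25 to 0.58, limma adjusted p 0.497). Without Astrocyte replicate 3 the same contrast was 0.41 for Tubb3 (adjusted p 0.0235). Another annotated gene, Gm20388, spans Tubb3, but it shares none of the exons of Tubb3 and was listed at 0 CPM in every library.

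**Figure D1:**
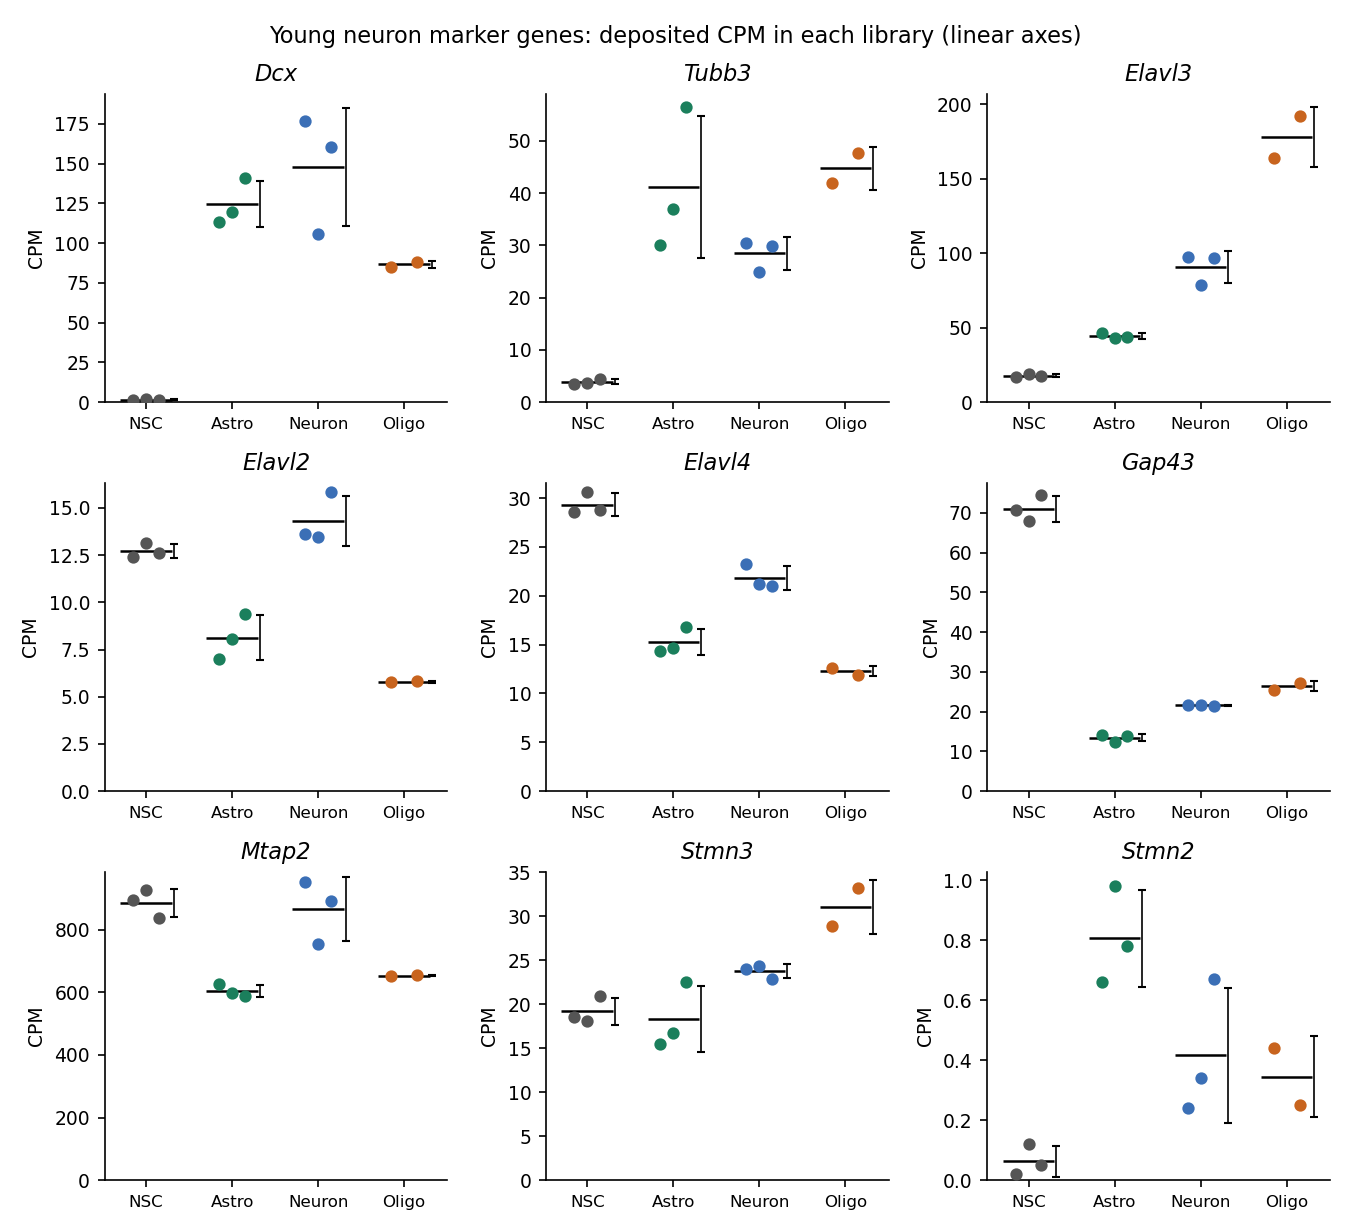
Deposited CPM of each of the 9 genes (vertical axis, linear, from 0) in the NSC (n = 3), Astrocyte (n = 3), Neuron (n = 3) and Oligodendrocyte (n = 2) libraries; points are libraries, lines are group means and bars are ± 1 SD. Dcx, Tubb3 and Elavl3 sat higher in every day 4 library than in NSC, Elavl4 and Gap43 sat lower, and Stmn2 stayed under 1 CPM in all 11 libraries.

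The 3 neuronal Hu genes moved in different directions. Elavl3 (ENSMUSG00000003410; mm9 chromosome 9, 21819449 to 21856467, minus strand) was at 16.95, 18.68 and 17.91 CPM in NSC, 46.28, 42.9 and 44.07 CPM in Astrocyte, 97.55, 78.59 and 96.69 CPM in Neuron, and 164.1 and 192.42 CPM in Oligodendrocyte. The 4 groups formed 4 steps with no overlap, and the T3 medium was at the top. The log2 fold change of Elavl3 against NSC was 1.27 in Astrocyte (limma adjusted p 8.41e-09), 2.28 in Neuron (1.83e-11) and 3.25 in Oligodendrocyte (2.34e-12). Each step between day 4 groups was called as well: Elavl3 was higher in Oligodendrocyte than in Neuron (0.97, limma adjusted p 1.47e-06) and lower in Astrocyte than in Neuron (-1.01, limma adjusted p 3.70e-07).

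Elavl4 was highest before differentiation. Elavl4 (ENSMUSG00000028546; mm9 chromosome 4, 109876327 to 110024514, minus strand) was at 28.55, 30.66 and 28.78 CPM in NSC, 14.39, 14.62 and 16.78 CPM in Astrocyte, 23.28, 21.22 and 21.03 CPM in Neuron, and 12.66 and 11.94 CPM in Oligodendrocyte. Here the order of the day 4 groups was Neuron, Astrocyte, Oligodendrocyte, and again no groups overlapped. Elavl4 fell against NSC by a log2 fold change of -0.90 in Astrocyte (limma adjusted p 7.03e-08), -0.41 in Neuron (0.000188) and -1.19 in Oligodendrocyte (1.51e-08). Astrocyte was below Neuron by a log2 fold change of -0.49 (limma adjusted p 7.69e-05), and Oligodendrocyte by -0.78 (limma adjusted p 2.89e-06). Oligodendrocyte was also below Astrocyte (-0.29, limma adjusted p 0.0116), a call lost without Oligodendrocyte replicate 2 (adjusted p 0.0955).

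Elavl2 was lowest with T3. Elavl2 (ENSMUSG00000008489; mm9 chromosome 4, 90917454 to 91067476, minus strand) was at 12.41, 13.12 and 12.59 CPM in NSC, 6.99, 8.04 and 9.37 CPM in Astrocyte, 13.62, 13.46 and 15.84 CPM in Neuron, and 5.76 and 5.81 CPM in Oligodendrocyte. Elavl2 fell in Astrocyte (-0.59, limma adjusted p 6.40e-05) and Oligodendrocyte (-1.01, limma adjusted p 1.12e-06). In Neuron all 3 libraries lay above those of NSC, but the difference did not pass the test (0.16, limma adjusted p 0.150). The contrast of Oligodendrocyte with Neuron was -1.17 for Elavl2 (limma adjusted p 6.71e-07), opposite in sign to that of Elavl3. Elavl2 was lower in Astrocyte than in Neuron as well (-0.75, limma adjusted p 1.68e-05), and lower in Oligodendrocyte than in Astrocyte (-0.42, limma adjusted p 0.00546).

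The makeup of the Hu family differed between the groups. Of the summed CPM of Elavl2, Elavl3 and Elavl4, the share of Elavl3 was 29.8% ± 0.481 in NSC, 65.5% ± 2.82 in Astrocyte and 71.4% ± 1.79 in Neuron (each mean ± SD of n = 3), and it was 90.7% ± 1.16 with T3 (SD, n = 2). The share of Elavl4 went the other way, from 49.0% in NSC to 22.5%, 17.3% and 6.31% in Astrocyte, Neuron and Oligodendrocyte. The summed CPM of the 3 genes was 59.9 in NSC, 67.8 in Astrocyte, 127.1 in Neuron and 196.3 in Oligodendrocyte. The widely expressed relative Elavl1 (HuR) had 116.4 CPM in NSC and fell to 72.0 in Astrocyte, 70.8 in Neuron and 87.4 in Oligodendrocyte (log2 fold changes -0.69, -0.71 and -0.41, limma adjusted p 1.36e-08, 9.95e-09 and 1.11e-05). These genes are close paralogs, and how reads common to them were assigned is not given in the sources used here.

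**Figure D2:**
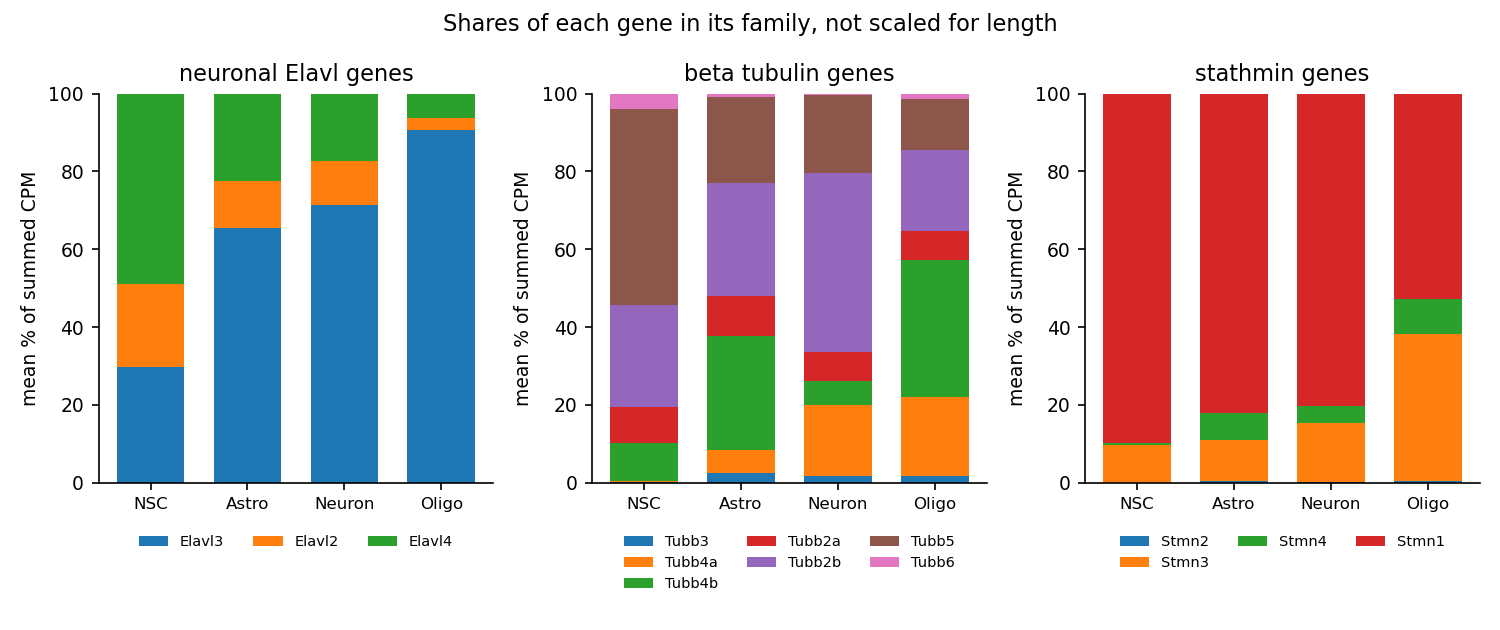
Mean share of each gene (vertical axis, percent of the family's summed CPM, not scaled for length) in each group for the neuronal Elavl genes, the beta tubulins and the stathmins; n = 3 libraries, 2 for Oligodendrocyte. Elavl3 grew from 29.8% to 90.7% of its family, Tubb3 stayed at or under 2.57% of the beta tubulins, and Stmn1 fell from 89.7% to 52.8% of the stathmins.

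Stmn3, a neuronal stathmin, was highest in the T3 medium. Stmn3 (ENSMUSG00000027581; mm9 chromosome 2, 181041164 to 181049205, minus strand) was at 18.56, 18.11 and 20.99 CPM in NSC, 15.52, 16.79 and 22.55 CPM in Astrocyte, 24.03, 24.36 and 22.88 CPM in Neuron, and 28.91 and 33.23 CPM in Oligodendrocyte. Astrocyte overlapped NSC, and the difference did not pass the test (-0.08, limma adjusted p 0.508). Stmn3 rose in Oligodendrocyte (0.66, limma adjusted p 0.000290). The rise in Neuron was small (0.29, limma adjusted p 0.0283) and was lost without NSC replicate 1 (adjusted p 0.0795), NSC replicate 2 (0.0910) or Neuron replicate 1 (0.0595), with no filter on low values (0.0646) and under median-of-ratios scaling (0.0681). Without Astrocyte replicate 3, Stmn3 was lower in Astrocyte than in NSC (-0.24, adjusted p 0.0266). Between day 4 groups Stmn3 was highest with T3, above Astrocyte by 0.75 (limma adjusted p 0.000277) and above Neuron by 0.37 (limma adjusted p 0.0202). The latter was lost under median-of-ratios scaling (0.22, adjusted p 0.163), without Oligodendrocyte replicate 2 (adjusted p 0.175) and without Neuron replicate 3 (adjusted p 0.0554). Astrocyte was below Neuron (-0.38, limma adjusted p 0.0111), a call lost without Astrocyte replicate 1 (adjusted p 0.0568).

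Stmn2, a gene of growing axons, was almost absent. Stmn2 (ENSMUSG00000027500; mm9 chromosome 3, 8509527 to 8561604, plus strand) was at 0.02, 0.12 and 0.05 CPM in NSC, 0.66, 0.98 and 0.78 CPM in Astrocyte, 0.24, 0.34 and 0.67 CPM in Neuron, and 0.44 and 0.25 CPM in Oligodendrocyte. It was under the level of 1 CPM in 2 libraries needed for testing, so 8 of the 9 genes were tested. These CPM amount to an estimated 11 reads in all 3 NSC libraries together, 152 in Astrocyte, 71 in Neuron and 44 in Oligodendrocyte, and every day 4 library lay above every NSC library. With no filter on low values, Stmn2 was higher than in NSC by 0.76 in Astrocyte (limma adjusted p 0.000132), 0.40 in Neuron (0.00905) and 0.34 in Oligodendrocyte (0.0392). The ubiquitous Stmn1, which is abundant in dividing cells, fell in every medium, the most in Oligodendrocyte (176.8 CPM in NSC and 43.3 CPM in Oligodendrocyte, limma adjusted p 1.31e-10). Stmn4, another neuronal stathmin, rose from 1.02 CPM in NSC to 11.9 in Astrocyte, 6.46 in Neuron and 7.32 in Oligodendrocyte (log2 fold changes 2.67, 1.90 and 2.05).

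Gap43 fell in every medium. Gap43 (ENSMUSG00000047261; mm9 chromosome 16, 42248555 to 42340764, minus strand) was at 70.63, 67.89 and 74.52 CPM in NSC, 14.02, 12.35 and 13.89 CPM in Astrocyte, 21.69, 21.71 and 21.48 CPM in Neuron, and 25.51 and 27.3 CPM in Oligodendrocyte. NSC stood far above all day 4 libraries, and no groups overlapped. The log2 fold change was -2.32 in Astrocyte (SE 0.067, limma adjusted p 9.36e-13), -1.67 in Neuron (limma adjusted p 3.07e-11) and -1.39 in Oligodendrocyte (limma adjusted p 7.92e-10). Gap43 was lower in Astrocyte than in Neuron (-0.65, limma adjusted p 1.97e-06) and than in Oligodendrocyte, where the log2 fold change of Oligodendrocyte against Astrocyte was 0.93 (limma adjusted p 3.29e-07). It was higher in Oligodendrocyte than in Neuron by 0.28 (limma adjusted p 0.00531). This call was lost under median-of-ratios scaling (0.13, adjusted p 0.137), trimmed mean scaling (0.12, adjusted p 0.159) and quantile normalization (0.08, adjusted p 0.345). It was also lost without Oligodendrocyte replicate 2 (0.23). Basp1, a growth cone protein of the same functional group, fell as well (-0.91, -0.34 and -1.43 in Astrocyte, Neuron and Oligodendrocyte, limma adjusted p 6.21e-07, 0.0041 and 2.07e-08). The listed relative Marcks went the other way in Neuron, at 1453.02, 1581.3 and 1492.14 CPM against 967.69, 975.29 and 1057.75 in NSC. Every Marcks library of Astrocyte and Oligodendrocyte lay below those of NSC. Marcksl1 was also higher in every Neuron library (432.99, 489.18 and 451.04 CPM) than in NSC (393.95, 399.53 and 418.38 CPM).

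Mtap2 was abundant before and after differentiation. Mtap2 (ENSMUSG00000015222; mm9 chromosome 1, 66221847 to 66489157, plus strand) was at 893.58, 925.72 and 836.49 CPM in NSC, 626.47, 598.05 and 588.46 CPM in Astrocyte, 951.22, 753.52 and 891.94 CPM in Neuron, and 653.18 and 654.57 CPM in Oligodendrocyte. Neuron overlapped NSC and did not differ from it by the test (-0.04, 95% interval -0.22 to 0.14, limma adjusted p 0.679). Mtap2 fell in Astrocyte (-0.55, limma adjusted p 3.24e-05) and Oligodendrocyte (-0.44, limma adjusted p 0.000726), and it was lower in both than in Neuron (-0.51 and -0.40, limma adjusted p 0.000133 and 0.00205). The second of these was lost under quantile normalization (-0.23, adjusted p 0.0938). Other microtubule-associated proteins of neurons rose in every medium, namely Mapt (tau; 2.25, 2.76 and 2.47 in Astrocyte, Neuron and Oligodendrocyte) and Mtap1b (1.29, 2.59 and 2.71).

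For an order of the members within a group, levels were divided by exon length, taken from GENCODE vM21. The family shares above and below were not scaled for length. In NSC the order was Mtap2 (53.8 CPM per kilobase), Gap43 (46.6), Stmn3 (16.9), Elavl4 (5.44), Elavl3 (2.59), Tubb3 (2.09), Elavl2 (1.53), Dcx (0.127) and Stmn2 (0.0113). In Neuron it began with Mtap2 (52.6), Stmn3 (20.9), Tubb3 (15.2), Gap43 (14.2), Elavl3 (13.2) and Dcx (11.7 CPM per kilobase). Dcx thus moved from near the bottom of the order to the level of Elavl3 and Gap43, and Stmn2 remained last at 0.0744. Summed over all 9 genes, the CPM was 997.1 to 1080 in NSC, 850.3 to 893.6 in Astrocyte, 1044 to 1339 in Neuron and 1018 to 1061 in Oligodendrocyte, a sum that Mtap2 dominates.

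Counted together, the genes did not move as a block. Against NSC, 7 of the 8 tested genes were called in Astrocyte, 3 higher and 4 lower, where 83.6% of all tested genes were called, 48.0% higher and 35.6% lower. In Neuron 6 were called, 4 higher and 2 lower, against 83.1% of all genes, 43.5% higher and 39.6% lower. In Oligodendrocyte all 8 were called, 4 higher and 4 lower, against 80.2% of all genes, 48.1% higher and 32.2% lower. The shares called lie near those of all genes. The libraries of the day 4 group and of NSC did not overlap for 7 members in Astrocyte, 7 in Neuron and 8 in Oligodendrocyte, against 86.2%, 83.2% and 89.3% of all genes. The median log2 fold change of the 8 was -0.32, 0.23 and 0.11 in the 3 media, beside 0.15, 0.06 and 0.19 over all tested genes. These 3 comparisons share the NSC libraries.

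Between day 4 groups, 7 of the 8 were called between Astrocyte and Neuron, 1 higher and 6 lower in Astrocyte, against 62.2% of all genes, 40.3% higher and 22.0% lower. Their median log2 fold change was -0.50, beside 0.10 over all genes. All 8 were called between Oligodendrocyte and Neuron, 4 in each direction (67.5% of all genes, 43.9% higher and 23.6% lower), with a median of -0.06 beside 0.15. The libraries did not overlap for 6 members between Astrocyte and Neuron, 8 between Oligodendrocyte and Neuron and 7 between Oligodendrocyte and Astrocyte, against 63.0%, 75.7% and 71.7% of all genes. The count of 8 called between Oligodendrocyte and Neuron fell to 5 without Oligodendrocyte replicate 2. Between Oligodendrocyte and Astrocyte 6 were called, 3 in each direction (52.2% of all genes, 28.7% higher and 23.5% lower), with a median of 0.14 beside 0.04. The scaling of the libraries moved the background: of all called genes, 64.7% were higher in Astrocyte than in Neuron and 65.1% higher in Oligodendrocyte than in Neuron with CPM as deposited, but 51.9% and 51.5% under median-of-ratios scaling. In Oligodendrocyte against NSC 59.9% of called genes were higher, and 47.7% under quantile normalization. No tested member changed sign in a called comparison under any scaling.

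**Figure D3:**
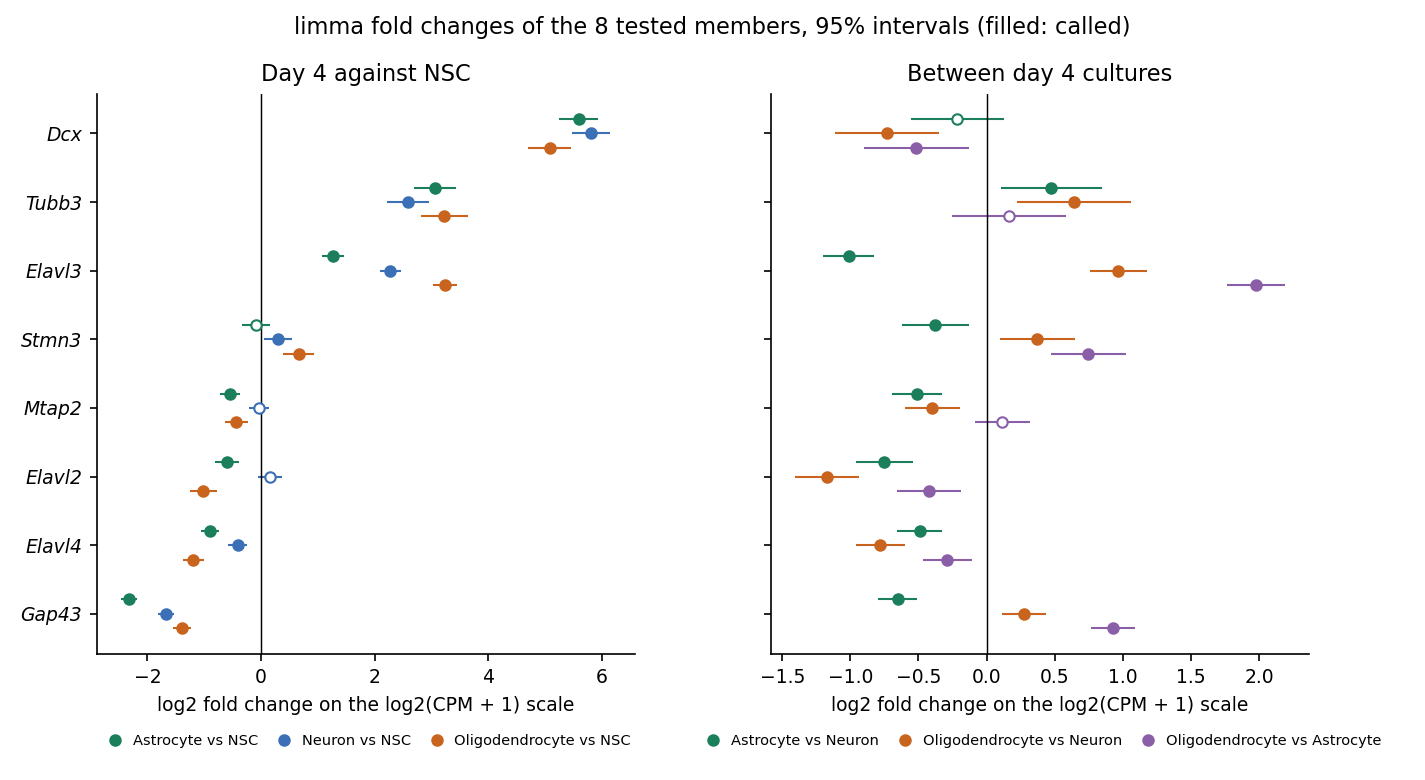
Log2 fold changes on the log2(CPM + 1) scale (horizontal axis) with 95% intervals for the 8 tested genes, each day 4 group against NSC at left and between day 4 groups at right; filled points passed an adjusted p under 0.05. Dcx lies between 5.08 and 5.81 against NSC and Gap43 between -2.32 and -1.39, while Elavl3 and Elavl2 lie on opposite sides of 0 for Oligodendrocyte against Neuron (0.97 and -1.17).

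The largest SD of Dcx, 37.2 CPM (n = 3), was in the Neuron group, where replicate 2 was low. Neuron replicate 2 was the lowest of the 3 Neuron libraries for Dcx, Tubb3, Elavl2, Elavl3 and Mtap2, 5 of the 8 genes at 1 CPM or more, and was the highest for 2. Its values were a median of 86.8% of the mean of replicates 1 and 3, where the median over all genes was 96.3%, with 50.2% of genes lowest in it and 35.5% highest, so the count of members is near the background. Dcx was at 62.8%. In the same library all 8 oligodendrocyte precursor genes were the lowest of the group (median 76.5%), and so were 8 of 9 mature neuron genes (79.1%), while 8 of 10 astrocyte genes were the highest (107.5%) and mitochondrial genes took 8.91% of the reads against 6.82% and 6.91%. Their part in the Neuron values was not tested. Without this library every member called against NSC in Neuron was still called, in the same direction.

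**Figure D4:**
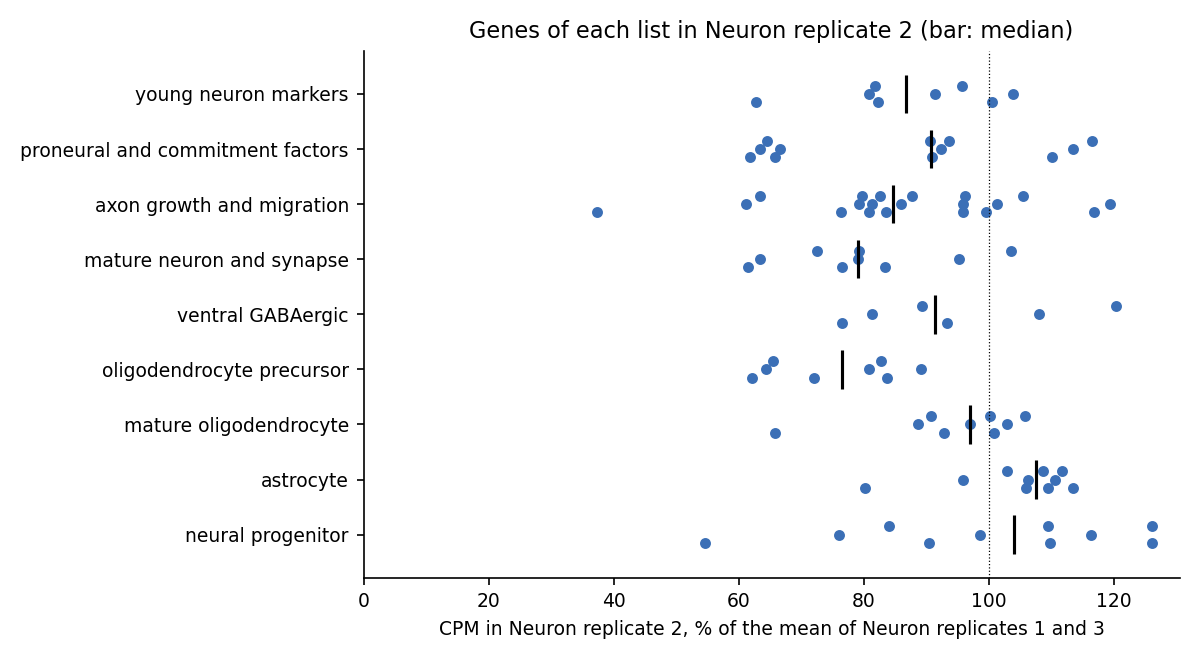
CPM in Neuron replicate 2 as a percent of the mean of Neuron replicates 1 and 3 (horizontal axis, linear) for genes of each list at 1 CPM or more; points are genes and bars are list medians. The young neuron genes had a median of 86.8%, the oligodendrocyte precursor genes 76.5% and the astrocyte genes 107.5%.

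The beta tubulin family was remodelled mainly outside Tubb3. Tubb3 supplied 0.155% of the summed beta tubulin CPM in NSC, 2.57% in Astrocyte, 1.76% in Neuron and 1.60% in Oligodendrocyte. Tubb5, the main beta tubulin of proliferating cells, fell from 50.3% in NSC to 22.1%, 20.1% and 13.2%. Tubb4a, the class of beta tubulin found in neurons and oligodendrocytes, rose from 8.33 CPM in NSC to 93.2 in Astrocyte, 294.5 in Neuron and 576.9 in Oligodendrocyte (log2 fold changes 3.33, 4.99 and 5.95, limma adjusted p 1.11e-13, 5.86e-15 and 1.38e-14). Tubb4b fell in Neuron (-1.28, limma adjusted p 2.45e-08) and rose in Oligodendrocyte (2.01, limma adjusted p 8.11e-10), so that the 2 media that differ in T3 gave 99.4 and 980.5 CPM. Tubb2a and Tubb2b are near-identical copies whose reads may have been split between them, so their values are uncertain. Of the doublecortin-like kinases, Dclk2 fell in every medium (-0.41, -0.42 and -1.08), and Dclk1 fell in Oligodendrocyte (-1.39, limma adjusted p 1.5e-09). Over all relatives of the members, 18 of 19 were tested, and 6 rose and 9 fell in Astrocyte, 8 and 9 in Neuron and 6 and 10 in Oligodendrocyte. Of all tested genes 48.0%, 43.5% and 48.1% rose in these media and 35.6%, 39.6% and 32.2% fell.

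Of 18 factors of neuronal commitment 12 were tested, with 3 higher and 7 lower in Astrocyte (median -0.36), 5 and 4 in Neuron (0.15) and 2 and 6 in Oligodendrocyte (-0.26), beside 48.0%, 43.5% and 48.1% of all tested genes higher and 35.6%, 39.6% and 32.2% lower. The Neuron counts are near these shares. Sox11, which acts in new neurons, fell in every medium (-1.04, -1.17 and -2.05 in Astrocyte, Neuron and Oligodendrocyte). Neurog2, the proneural factor of the cortex, rose in Neuron (1.51, limma adjusted p 1.32e-09) and Oligodendrocyte (1.11, limma adjusted p 1.3e-07), but only to 2.13 and 1.39 CPM. St18, a zinc finger factor related to Myt1, rose in every medium (1.11, 2.37 and 2.05), reaching 4.70 CPM in Neuron. Sox4 rose in Neuron (0.75, limma adjusted p 1.87e-08), and it was higher there than in Astrocyte and Oligodendrocyte (limma adjusted p 1.09e-07 and 1.39e-06). Neurog1, Neurod2, Neurod4, Neurod6, Eomes and Tbr1 were under the level for testing.

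Of 21 listed genes of axon growth and migration 20 were tested, with 13 higher and 6 lower in Astrocyte (median 0.51), 17 and 2 in Neuron (0.92) and 14 and 5 in Oligodendrocyte (0.74). Over all tested genes, 48.0%, 43.5% and 48.1% were higher and 35.6%, 39.6% and 32.2% lower, with medians of 0.15, 0.06 and 0.19. The kinesin Kif5c rose by 1.85, 2.07 and 1.98 in Astrocyte, Neuron and Oligodendrocyte. Dpysl4, of the collapsin response mediator family, rose by 1.59, 2.61 and 3.54, in the same group order as Elavl3, and its relative Dpysl5 rose by 2.32, 1.47 and 1.68, the most in Astrocyte. Nsg2, an endosomal protein of neurons, rose by 1.99, 2.07 and 1.04. Dpysl3 (-0.58, -0.42 and -1.11) and the kinesin Kif21b (-1.45, -0.78 and -1.97) fell in every medium, as Gap43 did. The adhesion proteins Ncam1 (0.43, 0.97 and 0.95) and Nrcam (0.72, 1.09 and 1.54) rose.

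Markers of mature neurons ranged from near 0 to moderate levels. Of 17 listed 12 were tested, with 9 higher and 3 lower in Astrocyte (median 0.46), 8 and 2 in Neuron (0.70) and 7 and 4 in Oligodendrocyte (0.37), where 48.0%, 43.5% and 48.1% of all tested genes were higher and 35.6%, 39.6% and 32.2% lower. Rbfox3 (NeuN) was at 0.683 CPM in NSC, 1.09 in Astrocyte, 2.34 in Neuron and 1.33 in Oligodendrocyte, and it rose in Neuron (0.98, limma adjusted p 6.99e-06). The synaptic gene Snap25 stayed at or under 3.69 CPM in every group mean. The neurofilament genes Nefl, Nefm and Nefh and the vesicular glutamate transporters Slc17a6 and Slc17a7 were under the level for testing. Ina, an intermediate filament of early neurons, rose by 1.16, 1.69 and 1.87 to 20.1 CPM in Neuron and 22.9 in Oligodendrocyte. Other genes of the list were well above the 1 CPM limit in Neuron: Gad1, which makes GABA, was at 35.3 CPM, the synaptic vesicle gene Syp at 21.1, Syn1 at 12.02 and Syt1 at 11.1. They were above it in NSC as well, with Gad1 at 15.01 to 16.48 CPM, Syp at 10.75 to 13.09, Syn1 at 9.59 to 11.26 and Syt1 at 6.0 to 6.71. Syn1 in Neuron overlapped NSC, and every Syt1 library of Astrocyte and Oligodendrocyte lay below those of NSC.

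Rest encodes the repressor that keeps neuronal genes off outside neurons, and several of its partners fell. Rest itself was at 39.0 CPM in NSC, 33.2 in Astrocyte, 33.2 in Neuron and 31.9 in Oligodendrocyte (-0.23, -0.23 and -0.28, limma adjusted p 0.00783, 0.00817 and 0.00447). The fall in Neuron was lost under quantile normalization (-0.14, adjusted p 0.0691). The corepressor Rcor1 fell by a log2 fold change of about 1 in each (-1.08, -1.07 and -1.07), and the deacetylase Hdac2 by more (-1.55, -1.17 and -1.33). The phosphatase Ctdsp2 rose (0.79, 0.96 and 0.57). Of the 10 genes of this group, all tested, 3 were higher and 6 lower in Astrocyte, 3 and 6 in Neuron and 2 and 6 in Oligodendrocyte. Over all tested genes 48.0%, 43.5% and 48.1% were higher and 35.6%, 39.6% and 32.2% lower.

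**Figure D5:**
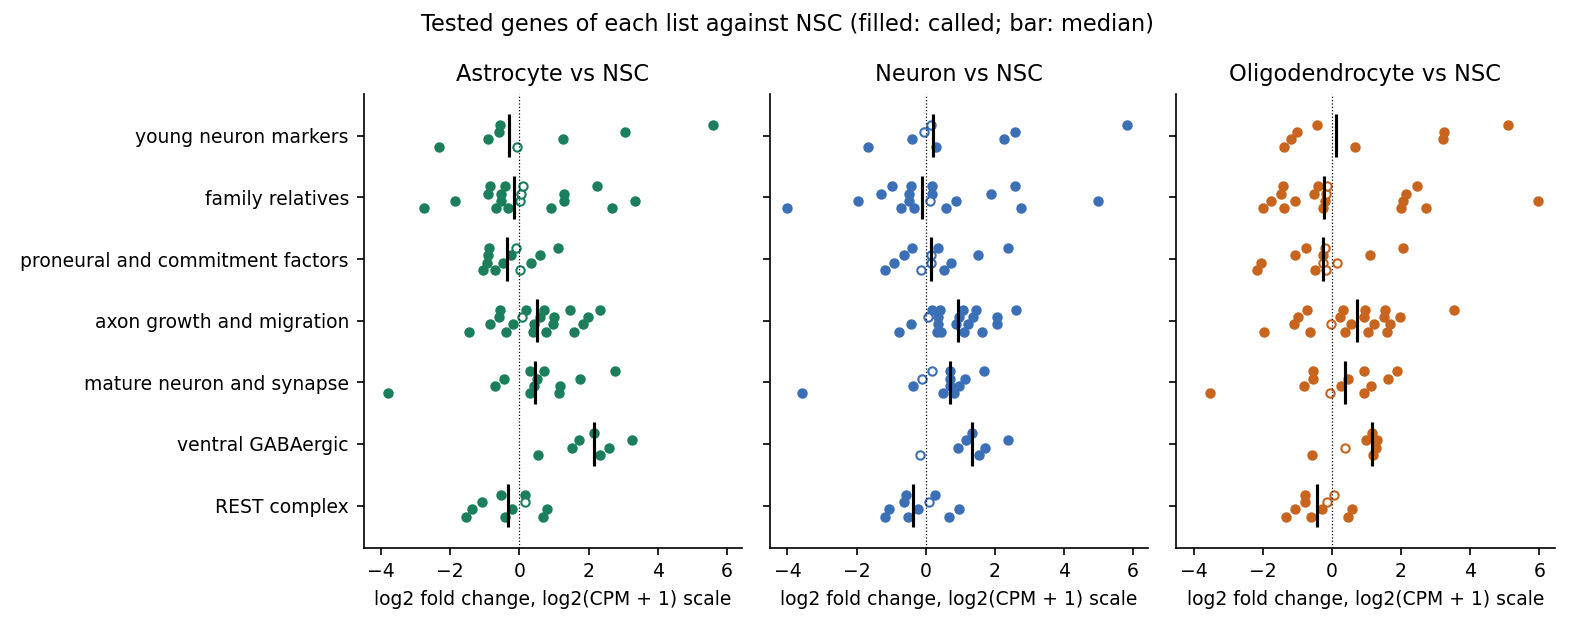
Log2 fold changes against NSC on the log2(CPM + 1) scale (horizontal axis, the same in each panel) for tested genes of 7 lists; points are genes, filled if called, and bars are list medians. The young neuron genes spread from -2.32 to 5.81, the axon growth list has medians of 0.51 to 0.92, and the ventral GABAergic list medians of 1.16 to 2.16.

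The genes whose log2(CPM + 1) followed each member most closely over the 11 libraries are given as a description. The libraries of a group share their medium, so the correlation largely follows 4 group means. Dcx was closest to Trim2 (r = 0.998), Nipal3 (0.996) and Scaper (0.996), and Trim2 went from 20.8 CPM in NSC to 125.0 in Neuron. Tubb3 was closest to Ttc39c (0.994), Slc22a17 (0.994) and Il11ra1 (0.992). Elavl3 was closest to Tmem163, Sema3d and Prkcz (0.997 each). Elavl2 was closest to Lmo3 (0.981), Rtn2 (0.979) and E130307A14Rik (0.977), and Elavl4 to Fam5b (0.985), Zkscan17 (0.983) and Gng2 (0.982). Gap43 was closest to Hpcal1 (0.998), Syk (0.996) and Ap1ar (0.996), Mtap2 to Chd7 (0.990), Prkd3 (0.984) and Zfml (0.982), Stmn3 to Fntb (0.971), Deb1 (0.955) and Cfl2 (0.922), and Stmn2 to Ipp (0.957), Trmt2b (0.953) and Acot2 (0.948). Among the members themselves, r was 0.956 between Dcx and Tubb3, 0.869 between Elavl2 and Elavl4, and -0.935 between Dcx and Gap43.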

How the data were processed

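Poly(A) RNA had been sequenced with a stranded mRNA kit, per the labels' protocols. The authors deposited CPM, rounded to 2 decimals, for 37991 genes on build NCBIM37 (mm9), per the file headers. The submitters' processing notes name bcl2fastq 1.8.4, TopHat2 2.0.8, HTSeq 0.6.1, edgeR 3.2.4, R 3.0.0 and HOMER, with no role or order. The sources used here do not give the annotation or counting mode. The deposited columns of group means, and of SDs (a signal in CPM units), were only checked against the libraries. The listed genes held 74.95% to 80.25% of each library's total. Low values fell on steps of 1 read, which gave the depth, but rounding kept whole reads from being recovered, so no count model was used.

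The 13342 genes that reached 1 CPM in 2 or more libraries were tested on log2(CPM + 1) with limma 3.58.1 in R 4.3.3, with 1 mean per group over all 11 libraries and eBayes with a trend (7 residual and 5.96 prior degrees of freedom). Tests were two-sided with Benjamini-Hochberg adjustment within each of 6 comparisons. A fold change on this scale understates the change of low genes. The steps were tested on simulated data. For genes of 10 CPM or more the variance between replicates was a median of 3.85 to 13.3 times the counting variance. All 9 members were named in full, with list genes by role and, for each member, the 3 genes of the highest correlation. The members and lists were chosen with earlier results of these data known. The alternatives tried changed the pseudocount, filter, scaling, replicate block, groups fitted, trend and libraries included.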

Additional observations from a re-analysis of the deposited data

How the results depend on the processing

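The count of members called between Oligodendrocyte and Neuron, 8 as reported, was 4 under quantile normalization and 5 to 8 with each library left out in turn. For the other comparisons the counts moved by at most 2 under the 22 alternatives. No member changed sign where it had been called. Of the other genes, Sox4 in Astrocyte against NSC, which was not called, turned to -0.14 under median-of-ratios scaling and -0.13 under trimmed mean scaling. These were called (limma adjusted p 0.0350 and 0.0421), while quantile normalization called Sox4 higher in Astrocyte than in NSC (0.20, limma adjusted p 0.00263). Under quantile normalization, Neurog2 (-0.16), Myt1l (-0.093) and Rbfox3 (-0.36) turned in Astrocyte against NSC, Rbfox3 (-0.19) in Oligodendrocyte against NSC, and Rcor1 (-0.20) in Oligodendrocyte against Neuron. The cause was not tested. Stmn3 between Oligodendrocyte and Neuron was lost under 6 alternatives. The labels do not say whether the replicate numbers pair the libraries. Same-numbered libraries of different groups had correlations of deviations from -0.51 to 0.41. For differently numbered libraries the range was -0.54 to 0.54. Deviations from the mean of so few libraries mirror each other, so these correlations cannot decide whether the numbers mark pairs. With the replicate number as a block, Dcx between Oligodendrocyte and Astrocyte was lost (-0.48, limma adjusted p 0.0624), and 5 members were called there against 6. Depth limits Stmn2 alone among the members.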

Other observations

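Of the ventral GABAergic genes, which are expressed by interneuron precursors of the basal forebrain, most that could be tested were higher at day 4 than in NSC. Of 10 listed 7 were tested, and all 7 rose in Astrocyte (median log2 fold change 2.16), 6 rose in Neuron (1.33), and 5 rose and 1 fell in Oligodendrocyte (1.16). Of all tested genes 48.0%, 43.5% and 48.1% rose in these media and 35.6%, 39.6% and 32.2% fell, with medians of 0.15, 0.06 and 0.19. Dlx1 was at 3.79 CPM in NSC, 45.5 in Astrocyte, 24.2 in Neuron and 10.7 in Oligodendrocyte (3.27, 2.39 and 1.29 against NSC). Sp8 was at 19.2 to 21.25 CPM in NSC. It overlapped NSC in Neuron (16.88 to 20.13 CPM) and lay below it in Oligodendrocyte (13.63 and 12.89 CPM). Gsx2, Nkx2-1 and Lhx6 were under the level for testing, with at most 0.02, 0.42 and 0.06 CPM in any library. Slc32a1, the vesicular GABA transporter from the mature neuron list, rose by 1.74 in Astrocyte (limma adjusted p 7.77e-07), to 2.48 CPM.

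Single genes of mature neurons differed in their course. Nrgn (neurogranin) was at 14.2 CPM in NSC and 0.103, 0.310 and 0.330 CPM in Astrocyte, Neuron and Oligodendrocyte (-3.79, -3.57 and -3.52). Camk2a rose in Astrocyte to 22.3 CPM from 2.38 CPM in NSC (2.77, limma adjusted p 4.29e-11) and was at 2.17 CPM in Neuron (-0.10 against NSC, limma adjusted p 0.429). Gad1, which makes GABA, rose in Astrocyte (0.51) and Neuron (1.13) and fell in Oligodendrocyte (-0.80).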
